A study of Mus musculus with 10 samples.

Results

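The mouse mitochondrial genome is a small circle that encodes 13 proteins of oxidative phosphorylation, 2 ribosomal RNAs and 22 transfer RNAs, and the deposited table lists each of these 37 genes under a name that starts with mt-. They were taken by that prefix, and make up 37 of the 55401 genes listed (0.0668%). All 37 names matched the mitochondrial genes of the GENCODE M21 annotation of mm10. The libraries came from E14 cells, a mouse embryonic stem cell (mESC) line that was otherwise untreated: 4 libraries of wild-type cells and 6 of cells edited with CRISPR/Cas9 to carry ANKRD11 Y347A, a replacement of a tyrosine by alanine in the chromatin-associated protein ANKRD11. The titles number 2 wild-type sets and 3 mutant sets of 2 libraries each. What a set stands for (a clone, a culture or a day) is not stated, so the p-values measure the spread between sets, which may be technical. RNA had been captured on mRNA beads in repeated rounds.

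The circle is copied from promoters in its control region into long RNAs that run through many genes on each strand, and the tRNAs between the genes mark where these RNAs are cut. Most of the mRNAs then receive short poly(A) tails. The proteins made from them are core subunits of complex I (7 genes), complex III (1), complex IV (3) and complex V (2), whose other subunits come from nuclear genes and are imported. Most genes are read in the direction of the reference strand, called plus here (28 genes), and mt-Nd6 with 8 tRNAs is read in the other direction, called minus (9 genes).

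Values were in TPM, a unit that divides reads by transcript length and scales each library to 1000000. Depth is therefore unknown, and when abundant genes such as the mt- genes take more of a library, every other gene is listed lower. In bulk RNA, fewer cells of a type and less RNA per cell cannot be told apart. All 10 stem cell markers on the list used were measured, with summed levels of 11075 to 11762 TPM in the wild-type libraries and 9928 to 11743 TPM in the mutant ones. Of these 10, Nanog fell (-0.68, adjusted p = 0.00674), as did Zfp42 (-0.50, adjusted p = 0.0419), a call lost under all 3 other scalings of the values, and Tdgf1 (0.30, adjusted p = 0.0269) and Esrrb (0.28, adjusted p = 0.0365) rose; their part in the mt- levels was not tested. Of 12 fibroblast feeder markers, 2 reached a mean of 1 TPM, 3 were at 0 in every library, and the sum was 5.13 to 7.68 TPM and 5.86 to 7.13 TPM. Ankrd11 itself had 62.4 ± 4.54 TPM (SD of 2 set means) in wild type and 59.8 ± 5.65 TPM (SD of 3 set means) in the mutant. The edit changes an amino acid, so this level checks no label.

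Several mt- mRNAs have copies in the nuclear genome, and these bear on the values of the genes they copy. Aligning the reference transcripts found 11 annotated nuclear pseudogenes that copy mt- mRNAs at 95% identity or more over at least 90% of the copy. Of these, 7 lie in 1 run on chromosome 1 (mm10, minus strand, chr1:24611535-24616197, 4663 bases), in the same order as in the mitochondrial genome: Gm29216 (the end of mt-Co1), Gm28661 (mt-Co2), Gm10925 (mt-Atp6), Gm28437 (mt-Co3), Gm28438 (mt-Nd3), Gm10222 (mt-Nd4l) and Gm28439 (the first part of mt-Nd4). Over the aligned stretch, 5 of the 7 are identical to the mt- gene and 2 differ by 1 base. The first 60 bases of mt-Co2, of its chromosome 1 copy and of a more distant copy on chromosome 2 (Gm13341, chr2:22587291-22587962) show the range, with capitals at the 2 bases where a copy differs from mt-Co2.
mt-Co2: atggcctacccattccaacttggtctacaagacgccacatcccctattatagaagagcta
Gm28661: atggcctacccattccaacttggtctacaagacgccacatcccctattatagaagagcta
Gm13341: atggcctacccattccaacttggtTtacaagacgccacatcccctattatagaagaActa
A read from such a stretch fits mt-Co2 and Gm28661 equally well. The single differences on chromosome 1 are T3C between mt-Nd3 and Gm28438 and A1066T between mt-Co1 and Gm29216, with positions counted from 1 at the first base of the mt- gene and the differing base in capitals.
mt-Nd3: atTaacctgtacactgttatcttcatta
Gm28438: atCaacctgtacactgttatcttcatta
mt-Co1: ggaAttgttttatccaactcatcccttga
Gm29216: ggaTttgttttatccaactcatcccttga

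The deposited values were divided between gene and copy. Of the TPM listed for mt-Co2 and Gm28661 together, 76.7 to 83.6% stood at the nuclear copy. For mt-Nd3 and Gm28438 this share was 72.2 to 83.0%, for mt-Atp6 and Gm10925 60.7 to 71.4%, and for mt-Co3 and Gm28437 52.8 to 63.1%. It was 18.8 to 45.9% for mt-Nd4l, 10.9 to 17.3% for mt-Co1 and 0.492 to 1.14% for mt-Nd4. The copies on chromosome 2 were near the floor of the table, the highest being Gm13340 (a copy of mt-Co1) at 1.62 to 3.49 TPM. The chromosome 1 copies summed to 30626 ± 1228 TPM in wild type and 39336 ± 1140 TPM in the mutant, a ratio of 1.28, and every mutant library was above every wild-type library.

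How the TPM divided between gene and copy varied from library to library. The 2 libraries of a set differed by 0.375 on the log2 scale at mt-Nd3 and by 0.139 at Gm28438 (mean of the absolute difference over 5 sets), but by 0.0675 once the copy was added to the gene. For mt-Co3 the difference was 0.136 at the gene, 0.0775 at the copy and 0.0365 for the sum, and for mt-Atp6 it was 0.152, 0.0848 and 0.0399. The sum was thus more alike between libraries of a set than either row for these 3 genes. Each result below is therefore given for the mt- row as deposited, and with the copies added, weighted by the length of the copy over that of the gene, where that changes the call.

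**Figure D1:**
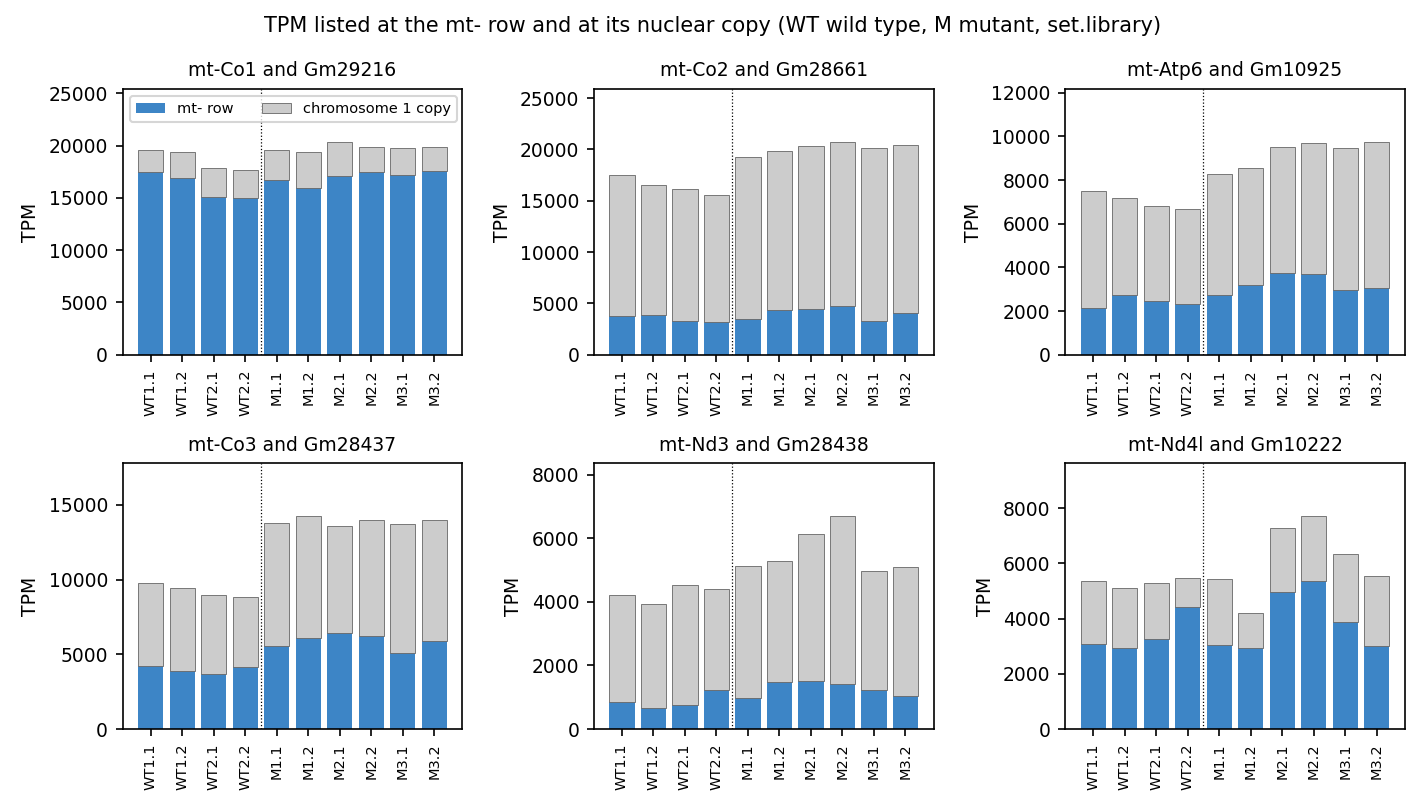
TPM at the mt- row (blue) and at its chromosome 1 copy (grey) in each of the 10 libraries, for 6 mt- mRNAs; the dotted line divides 4 wild-type from 6 mutant libraries, which are named by set and library. Most of the TPM of mt-Co2 and mt-Nd3 stood at the copy, and the stacked heights varied less within a set than the blue parts did for mt-Co3, mt-Atp6 and mt-Nd3.

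As deposited, mt- genes held 6.98 and 6.86% of all TPM in the libraries of wild-type set 1 and 6.19 and 6.41% in those of set 2. The mutant libraries had 7.03 and 6.86% (set 1), 8.71 and 8.67% (set 2), and 7.81 and 7.98% (set 3). The means were 6.61 ± 0.437% (SD of 2 set means) and 7.84 ± 0.874% (SD of 3 set means), a ratio of 1.19. Mutant set 1 lay at the level of wild-type set 1, with 5 of 6 mutant libraries above the highest wild-type library. With the copies added, the share was 9.25 to 10.2% in the wild-type libraries and 10.6 to 12.6% in the mutant ones, with means of 9.67 ± 0.559% and 11.8 ± 0.944%, a ratio of 1.22 and no overlap. Since the members were chosen with results of these data known, sums carry no test.

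The most abundant rows of the whole table were mt-Atp8 (1st by mean TPM, 27338) and mt-Co1 (2nd, 16637). mt-Co3 ranked 23rd, mt-Nd1 27th and mt-Co2 35th, and the lowest of the measured mt- genes, mt-Rnr2, ranked 345th at 348 TPM. These ranks are of single rows as deposited. With copies added, mt-Co2 had means of 16380 TPM in wild type and 20060 TPM in the mutant, beside 16909 and 17887 TPM for mt-Co1. In all, 15 of the 37 genes had a mean of 1 TPM or more: the 13 mRNAs and both rRNAs.

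**Figure D2:**
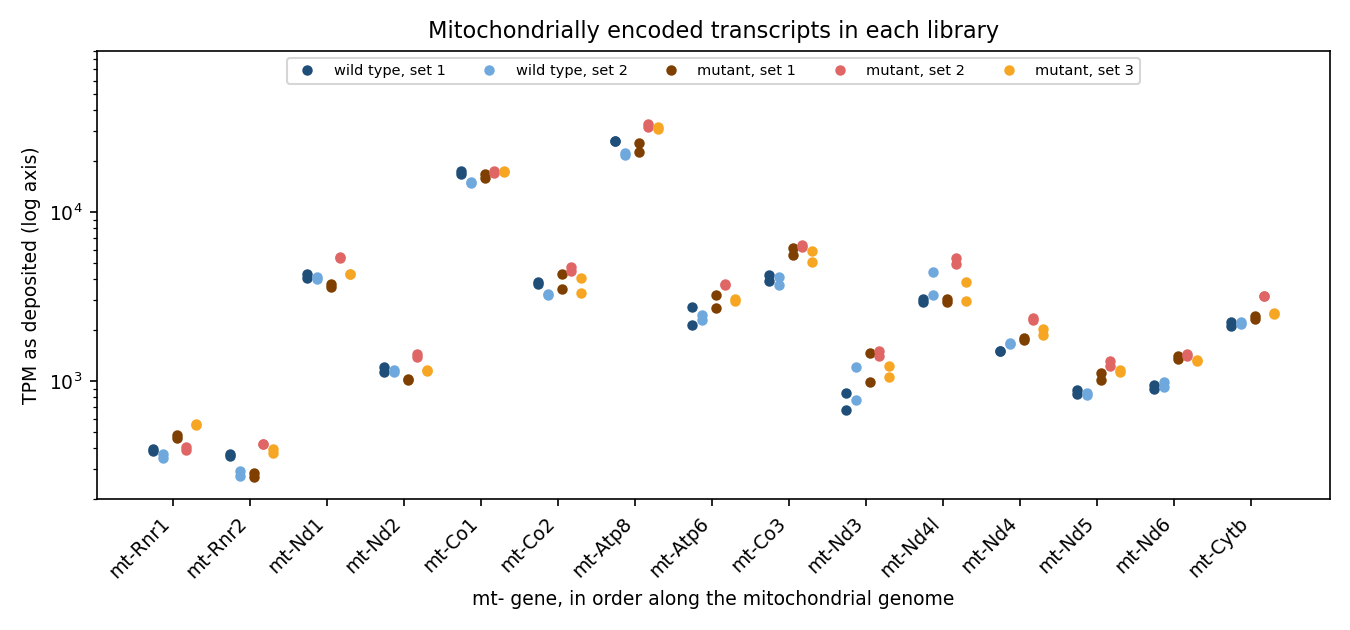
TPM as deposited (log axis) of the 15 measured mt- genes in genome order, with 1 point per library, coloured by set. Levels span from mt-Rnr2 (269 to 426 TPM) to mt-Atp8 (21750 to 33144 TPM), and mutant set 2 was the highest mutant set at 13 of 15 genes.

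The 22 tRNAs were listed at 0 in all 10 libraries. They carry amino acids to the mitochondrial ribosome and are 59 to 75 bases long. The shortest, mt-Ts2 (a serine tRNA, chrM:11613-11671), and the longest, mt-Tl1 (a leucine tRNA, chrM:2676-2750), show how short these RNAs are.
mt-Ts2: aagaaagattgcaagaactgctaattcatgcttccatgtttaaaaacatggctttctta
mt-Tl1: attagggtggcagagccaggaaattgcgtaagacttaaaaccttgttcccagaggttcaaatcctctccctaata
The same held across the table for genes of this length: of 1004 other genes of up to 75 bases, 0 were above 0 in any library, nor were any of 1421 genes longer than that and of up to 100 bases, or of the next 3496 of up to 150 bases. Among genes longer than 150 and up to 200 bases 14 of 878 (1.59%) were above 0, and among those of over 200 and up to 300 bases 174 of 2094 (8.31%). The listing at 0 therefore gives no level for the tRNAs.

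Mutant and wild type were compared gene by gene with limma on log2(TPM + 1), using 3 mutant against 2 wild-type set means and Benjamini-Hochberg adjustment over the 12797 genes whose mean TPM reached 1. A gene was called at an adjusted p under 0.05. Of the 15 measured mt- genes 5 were higher in the mutant and 0 lower, where 6.97% of all tested genes were called higher and 10.5% lower. All 15 log2 differences were positive, so 0 of the 15 could be lower at an unadjusted p under 0.05 either. Their median was 0.29 (range 0.03 to 0.56), beside a median of -0.04 over all tested genes. At 5 of the 15 (mt-Co3, mt-Nd4, mt-Nd5, mt-Nd6 and mt-Cytb) every mutant library lay above every wild-type library, as was so for 12.4% of all tested genes. With the copies added, 5 were again called higher (against 6.96% of genes) and 8 of 15 did not overlap. mt-Co2 joined the calls and mt-Nd3 left them.

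Complex I takes electrons from NADH, and its 7 mt- subunits form the membrane arm that pumps protons. Of these, 3 rose: mt-Nd3, mt-Nd5 and mt-Nd6. mt-Nd6 (ENSMUSG00000064368.1, chrM:13552-14070, minus strand) had 947 and 901, and 991 and 918 TPM in the wild-type sets, against 1351 and 1413, 1454 and 1399, and 1323 and 1329 TPM in mutant sets 1, 2 and 3. The 2 genotypes did not overlap, and the 3 mutant sets lay close together. The difference was 0.55 ± 0.06 (log2 ± SE, adjusted p = 0.00536), a ratio of mean TPM of 1.47. No source used here gives the strand setting of the authors' counting, so RNA antisense to mt-Nd6 cannot be told apart from mt-Nd6.

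mt-Nd5 (ENSMUSG00000064367.1, chrM:11742-13565) rose from 824 to 886 TPM in the wild-type libraries to 1014 to 1311 TPM in the mutant ones, by 0.44 ± 0.08 (adjusted p = 0.0187). It is the next gene before mt-Nd6 and overlaps its end by 14 bases on the opposite strand. mt-Nd3 (ENSMUSG00000064360.1, chrM:9459-9806) had 848, 674, 770 and 1213 TPM in wild type and 989 to 1513 TPM in the mutant (0.56 ± 0.14, adjusted p = 0.0365), so the libraries overlapped. With Gm28438 added, the values became 3907 to 4506 TPM and 4952 to 6644 TPM with no overlap, but the difference fell to 0.37 ± 0.11 and missed the threshold (adjusted p = 0.0603).

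The other complex I genes were not called. mt-Nd4 (chrM:10167-11544) had 1506 to 1674 TPM in wild type and 1746 to 2362 TPM in the mutant, with no overlap and a difference of 0.34 ± 0.12 (adjusted p = 0.0870). mt-Nd4l (chrM:9877-10173), whose last 7 bases are also the first of mt-Nd4 and which sits with it on 1 mRNA, had 2921 to 4428 TPM and 2940 to 5375 TPM (0.15 ± 0.22, adjusted p = 0.657). Although the pair shares 1 mRNA, mt-Nd4l was listed as deposited at a mean of 3683 TPM over all libraries and mt-Nd4 at 1846 TPM. With the copies added, mt-Nd4l had means of 5286 TPM in wild type and 6050 TPM in the mutant. mt-Nd4 then had 1596 and 2027 TPM. mt-Nd1 (chrM:2751-3707) and mt-Nd2 (chrM:3914-4951) differed least, by 0.09 ± 0.14 (adjusted p = 0.670) and 0.03 ± 0.13 (adjusted p = 0.869). In both, mutant set 1 lay below every wild-type library and mutant set 2 above: mt-Nd1 had 3764 and 3621, 5331 and 5427, and 4274 and 4284 TPM in mutant sets 1, 2 and 3 against 3999 to 4279 TPM in wild type. Without mutant set 2 the differences of mt-Nd1, mt-Nd2 and mt-Nd4l turned to -0.05, -0.09 and -0.08.

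Complex III passes electrons to cytochrome c, and mt-Cytb (chrM:14145-15288), its cytochrome b, is the 1 subunit made in mitochondria. It had 2225, 2108, 2225 and 2175 TPM in wild type, and 2415 and 2317, 3165 and 3192, and 2537 and 2500 TPM in mutant sets 1, 2 and 3. All mutant libraries were higher, set 1 by little, and the difference of 0.29 ± 0.12 was not called (adjusted p = 0.143).

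Complex IV, cytochrome c oxidase, reduces oxygen, and its catalytic core is formed by the proteins of mt-Co1, mt-Co2 and mt-Co3. mt-Co3 (ENSMUSG00000064358.1, chrM:8607-9390) rose from 4237 and 3881, and 3714 and 4146 TPM in wild-type sets 1 and 2 to 5579 and 6111, 6411 and 6211, and 5057 and 5878 TPM in mutant sets 1, 2 and 3. No libraries overlapped, with a difference of 0.55 ± 0.08 (adjusted p = 0.00819) and a ratio of 1.47. With Gm28437 added, the 4 wild-type libraries lay between 8816 and 9741 TPM and the 6 mutant libraries between 13578 and 14211 TPM, a difference of 0.59 ± 0.06 (adjusted p = 0.00385) and a ratio of 1.502. The copy listed by itself rose as well, by 0.61 ± 0.08 (adjusted p = 0.00741), its bases being identical to those of mt-Co3.

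mt-Co2 (chrM:7013-7696) was not called as deposited, at 3209 to 3847 TPM in wild type and 3306 to 4715 TPM in the mutant (0.20 ± 0.11, adjusted p = 0.252). With Gm28661, which held most of its TPM, the values were 17410 and 16476, and 16123 and 15509 TPM in wild type and 19223 and 19812, 20244 and 20644, and 20032 and 20402 TPM in the mutant. The genotypes then did not overlap and the sum was higher in the mutant by 0.29 ± 0.06 (adjusted p = 0.0222). mt-Co1 (chrM:5328-6872) differed little, at 14941 to 17470 TPM and 15988 to 17574 TPM (0.08 ± 0.08, adjusted p = 0.480). Wild-type set 2 lay below wild-type set 1 there, by 0.19 (adjusted p = 0.0180 between these sets), and mutant and wild-type libraries overlapped with the copies added as well.

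Complex V is the ATP synthase. Its mt-Atp6 protein forms part of the proton channel, and mt-Atp8 is a small peripheral subunit. Both are translated from 1 mRNA, in reading frames that overlap by 43 bases (chrM:7927-7969), shown in capitals between 9 bases on each side.
mt-Atp8 and mt-Atp6: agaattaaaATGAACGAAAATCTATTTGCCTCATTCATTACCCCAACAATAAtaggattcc
The capitals begin with the start codon of mt-Atp6 and end with the stop codon of mt-Atp8. mt-Atp6 (ENSMUSG00000064357.1, chrM:7927-8607) had 2141 and 2737, and 2467 and 2309 TPM in wild type and 2724 and 3215, 3741 and 3681, and 2967 and 3069 TPM in the mutant. The lowest mutant library lay just under the highest wild-type one, and the difference of 0.42 ± 0.10 was called (adjusted p = 0.0365). With Gm10925 the values were 6654 to 7460 TPM and 8252 to 9710 TPM with no overlap (0.39 ± 0.08, adjusted p = 0.0232).

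mt-Atp8 (chrM:7766-7969), of 204 bases, was not called: 26423 and 26331, and 21750 and 22461 TPM in wild type, and 25508 and 22711, 33144 and 31964, and 31148 and 31939 TPM in the mutant (0.27 ± 0.14, adjusted p = 0.225). Mutant set 1 lay within the wild-type range and mutant sets 2 and 3 above it. Although the reading frames share an mRNA, mt-Atp8 was listed at 3.45 ± 0.221 times the TPM of mt-Atp6 with its copy in wild type and 3.19 ± 0.276 times in the mutant. mt-Atp8 is the shortest mt- mRNA in the table.

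Both rRNAs are part of the mitochondrial ribosome and lie near the start of the plus-strand transcript, with the tRNA mt-Tv between them. mt-Rnr1 (12S, chrM:70-1024) had 384, 398, 349 and 372 TPM in wild type and 459 and 481, 393 and 406, and 553 and 554 TPM in mutant sets 1, 2 and 3 (0.32 ± 0.13, adjusted p = 0.128). mt-Rnr2 (16S, chrM:1094-2675) had 369, 362, 276 and 294 TPM in wild type and 284 and 269, 426 and 425, and 377 and 398 TPM in the mutant (0.15 ± 0.19, adjusted p = 0.612). Neither was called. Their order differed between the mutant sets: mt-Rnr1 was lowest in set 2 and mt-Rnr2 lowest in set 1, so that mt-Rnr1 over mt-Rnr2 was 1.61 and 1.79 (set 1), 0.923 and 0.955 (set 2), and 1.47 and 1.39 (set 3), against 1.04 to 1.27 in wild type. rRNA is meant to be removed by mRNA capture, and the part of capture in these levels was not tested.

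Leaving out a set or a library ended several calls. Without wild-type set 1 or wild-type set 2, when 1 wild-type set is assumed to vary like the mutant sets, 0 of 15 mt- genes were called higher, and of all genes 83 and 10 in place of 892. mt-Nd6 then had differences of 0.53 (adjusted p = 0.0632) and 0.58 (adjusted p = 0.0731), and mt-Co3 0.58 (adjusted p = 0.0811) and 0.53 (adjusted p = 0.120). The number of mt- genes called was 3 when mutant set 1 was left out, 2 when mutant set 3 was, and 3 when library 2 of mutant set 1 was, and the calls of mt-Nd6 and mt-Co3 held in each of these. mt-Nd5 was lost with mutant set 3 left out (adjusted p = 0.0576), mt-Atp6 with mutant set 1 (adjusted p = 0.0610), mutant set 3 (adjusted p = 0.0714), library 1 of wild-type set 1 (adjusted p = 0.0947) or library 2 of mutant set 1 (adjusted p = 0.0860), and mt-Nd3 with any set, or any of 3 libraries (library 1 of wild-type set 2, library 2 of mutant set 1 and library 1 of mutant set 3), at adjusted p = 0.0519 to 0.220.

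**Figure D3:**
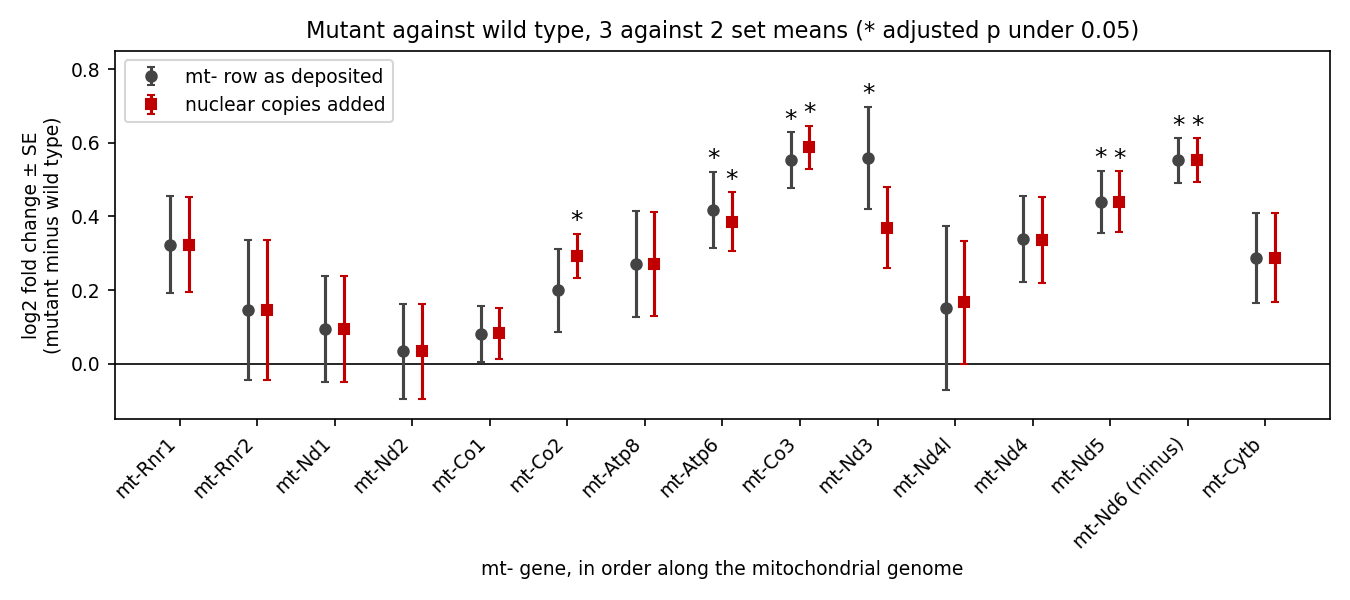
Log2 difference between mutant and wild type with its SE for the 15 measured mt- genes in genome order, as deposited (grey circles) and with nuclear copies added (red squares); stars mark adjusted p under 0.05. All 15 values are above 0, and 4 genes (mt-Atp6, mt-Co3, mt-Nd5 and mt-Nd6) carry a star in both.

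Along the genome, the mRNAs called as deposited lay on 1 side. Of the 5 mRNA genes before mt-Atp6 (mt-Nd1, mt-Nd2, mt-Co1, mt-Co2 and mt-Atp8), 0 were called and the median difference was 0.09. Of the 8 from mt-Atp6 onward, 5 were called and the median was 0.43. With the copies added this was 1 of 5 with a median of 0.09, and 4 of 8 with a median of 0.38. The dividing point was chosen after the values were seen and lies at the first called gene. The 0 of 5 therefore follows from that choice, and this is a description. It parts mt-Atp8 from mt-Atp6, which share 1 mRNA, and the 8 genes include mt-Nd6 of the minus strand. Over the 12 plus-strand mRNAs the difference and the position in the genome had Pearson's r = 0.574 and Spearman's rho = 0.636 (0.584 and 0.573 with copies), across genes that share their libraries and in part their precursor RNA.

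By complex, the summed TPM was higher in the mutant for all 4 complexes, by ratios of mean TPM of 1.18 for complex I, 1.23 for complex III, 1.14 for complex IV and 1.22 for complex V, and of 1.20 for the rRNAs. The libraries overlapped for complexes I and V and for the rRNAs, and did not for complexes III and IV. Complex IV had 22061 to 25481 TPM in wild type and 25512 to 28406 TPM in the mutant, so the groups were divided by a narrow gap. With the copies its ratio was 1.22, at 40148 to 45306 TPM and 50593 to 52821 TPM.

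The shares of the complexes in the mt- total were compared next. Complex V took 40.3 ± 1.97% of mt- TPM in wild type and 41.5 ± 2.40% in the mutant, complex IV 35.7 ± 0.704% and 34.5 ± 2.71%, complex I 19.7 ± 2.46% and 19.5 ± 1.55%, complex III 3.31 ± 0.256% and 3.42 ± 0.234%, and the rRNAs 1.06 ± 0.0488% and 1.07 ± 0.121%. Libraries of the genotypes overlapped for each of these shares, which use the rows as deposited. With the copies added, complex IV was the largest part, at 44.82 ± 0.107% in wild type and 44.96 ± 3.08% in the mutant. Complex V then took 32.9 ± 1.62% and 33.2 ± 2.15%, and libraries again overlapped for both complexes. The ratio of the complex IV share, mutant over wild type, was 0.967 as deposited and 1.003 with the copies.

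Within complexes, shares of some single genes separated the genotypes. By strand, the measured minus-strand RNA is mt-Nd6 alone, and it took 1.36, 1.31, 1.60 and 1.43% of the mt- total in wild type and 1.92 and 2.06, 1.67 and 1.61, and 1.69 and 1.67% in mutant sets 1, 2 and 3, with no overlap (means 1.43 ± 0.128% and 1.77 ± 0.192%). The minus-strand TPM was 1.47 times and the plus-strand TPM 1.18 times (1.22 times with copies) the wild-type level. This sets 1 gene beside a sum, and single plus-strand mRNAs as deposited ranged from 1.03 (mt-Nd2) to 1.47 (mt-Co3). The strand setting of the counting is not known here either. Set against neighbours, mt-Nd6 over mt-Nd5 was 1.07 to 1.16 in wild type and 1.11 to 1.39 in the mutant, and mt-Nd6 over mt-Cytb 0.422 to 0.446 and 0.438 to 0.610, and both ratios overlapped.

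With the copies added, the share of mt-Co3 rose from 9.66 to 9.83% in the wild-type libraries to 11.0 to 13.7% in the mutant ones, while that of mt-Co1 was lower, at 17.5 to 18.1% and 14.6 to 16.5%. These complex IV subunits thus moved in opposite directions as shares. mt-Nd2 was lower as a share in every mutant library (1.16 to 1.27% and 0.958 to 1.15%), and mt-Atp6 (7.35 to 7.46% and 7.67 to 8.23%), mt-Nd5 (0.865 to 0.936% and 0.958 to 1.06%) and mt-Nd6 (0.925 to 1.09% and 1.12 to 1.36%) higher. As deposited, the shares of mt-Nd2 (1.64 to 1.87% and 1.43 to 1.66%) and mt-Atp6 (3.07 to 3.99% and 3.80 to 4.68%) overlapped. The shares of mt-Nd5 and mt-Nd6 did not overlap. A share falls where other mt- genes rise, and mt-Co1 and mt-Nd2 were not lower as TPM.

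**Figure D4:**
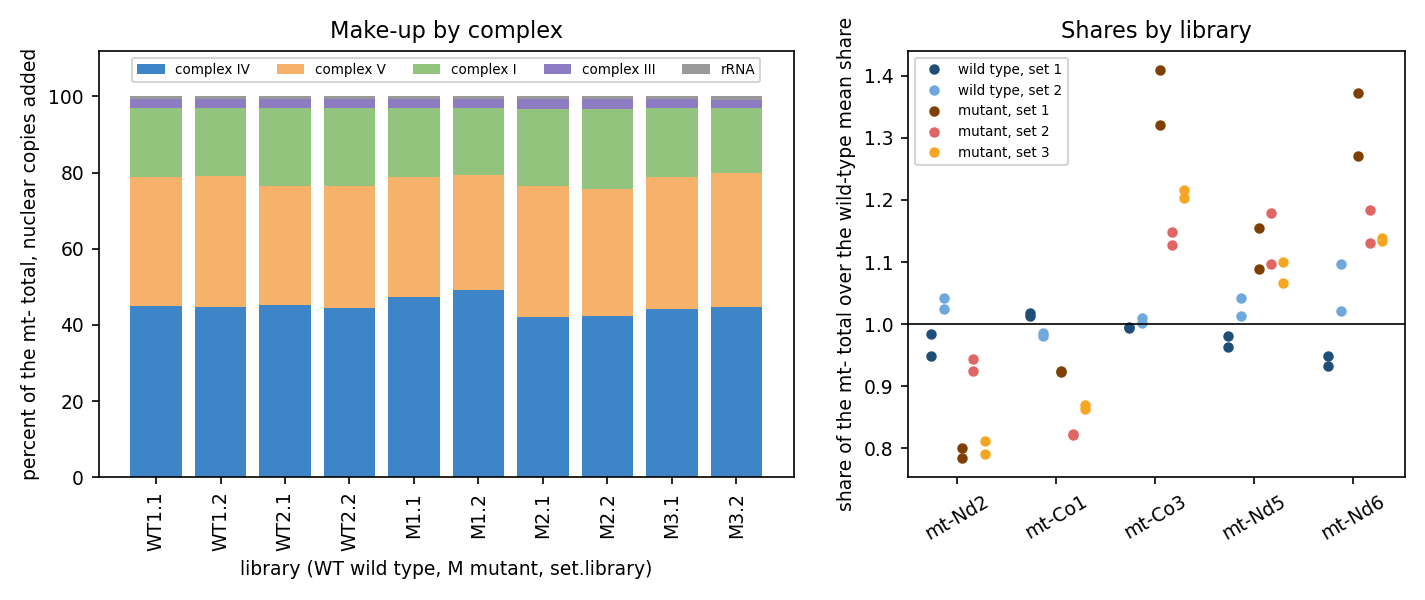
Left, percent of the mt- total by complex in each library (set.library), and right, the share of 5 mt- genes over their mean wild-type share, with 1 point per library. Nuclear copies are added in both panels. The left bars differ little between genotypes, and on the right every mutant point of mt-Nd2 and mt-Co1 lies below, and every mutant point of mt-Co3, mt-Nd5 and mt-Nd6 above, the wild-type points.

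Sets of 1 genotype differed from each other as well. A limma F test over the 3 mutant sets, with the spread taken from libraries of the same set, called 9 of 15 mt- genes where 19.6% of all tested genes were called, and wild-type set 2 differed from set 1 at 3 of 15 (mt-Rnr2, mt-Co1 and mt-Atp8) where 2.75% were called. Mutant set 2 was the highest mutant set at 13 of 15 genes. The step from mutant set 1 to set 2 was largest for mt-Nd4l (0.78), mt-Rnr2 (0.62) and mt-Nd1 (0.54), and was 0.05 for mt-Nd6 and 0.11 for mt-Co3. Mutant set 2 also had the fewest genes at 1 TPM or more, 12522 and 12473, against 12625 to 12812 in the other libraries, and the part of this in its mt- levels was not tested.

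The nuclear genes that copy, cut and translate mitochondrial RNA were compared from lists in the same fit, the lists being chosen with earlier results of these data known. Of all 12797 genes tested, 6.97% were called higher and 10.5% lower, and a share of a list near these is not a result about the list. Of 8 measured genes of mitochondrial transcription, 2 fell and 0 rose: Tfam, which packages mitochondrial DNA and opens its promoters, from 88.9 to 107 TPM in wild type to 62.5 to 87.4 TPM in the mutant (-0.43 ± 0.08, adjusted p = 0.0210), and Tfb2m, the factor that melts the promoter, from 16.0 to 17.5 TPM to 10.9 to 14.2 TPM (-0.39 ± 0.10, adjusted p = 0.0395). Of 7 measured regulators of mitochondrial biogenesis 2 fell: Nrf1, a transcription factor of nuclear genes for mitochondrial proteins (-0.55 ± 0.09, adjusted p = 0.0133), and Gabpa (-0.31 ± 0.07, adjusted p = 0.0339), and 1 rose, Nfe2l2, a factor of the oxidative stress response (0.30 ± 0.08, adjusted p = 0.0450). Of 17 genes of mitochondrial DNA maintenance 1 fell, Suclg1, at -0.26, and 0 rose, whereas median-of-ratios rescaling gave 0 lower and 1 higher. The calls of Tfb2m and Suclg1 were lost under all 3 other scalings of the values (median-of-ratios rescaling gave adjusted p = 0.0513 and 0.0747), and without wild-type set 1 or set 2 all 17 lists together held 2 or 1 calls higher and 1 or 0 lower, in place of 20 and 44.

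Of 24 measured genes of mitochondrial RNA processing and stability, 2 fell and 1 rose. Grsf1, an RNA-binding protein of mitochondrial RNA granules, fell from 173 to 211 TPM to 109 to 143 TPM (-0.60 ± 0.12, adjusted p = 0.0227), and Rexo2, an oligoribonuclease that degrades short RNA, fell by 0.48 ± 0.08 on the log2 scale (adjusted p = 0.0150). Lrpprc, which with Slirp stabilises mitochondrial mRNAs, rose from 31.3 to 36.6 TPM to 41.2 to 54.3 TPM (0.49 ± 0.12, adjusted p = 0.0329). Among 23 genes of tRNA and rRNA modification 2 fell (Qtrt2 at -0.39 and Mrm1 at -0.36) and 0 rose, but the call of Mrm1 was lost under all 3 other scalings (adjusted p = 0.0693 with median-of-ratios rescaling) and when the minimum mean was raised to 5 TPM (adjusted p = 0.0531). Among 19 aminoacyl-tRNA synthetases 3 fell and 0 rose: Lars2, the mitochondrial leucyl-tRNA synthetase, at -0.61 ± 0.13 (adjusted p = 0.0253), and Gars and Kars, which serve cytosol and mitochondria alike, at -0.40 and -0.33. Quantile normalization ended the calls of Kars and, among the biogenesis regulators, Gabpa (adjusted p = 0.0541 and 0.0555). Of 80 measured proteins of the mitochondrial ribosome 4 rose (Mrps23, Mrps26, Mrps5 and Mrpl13) and 7 fell, with a median of -0.11, and median-of-ratios rescaling gave 4 and 4. Mrps23 had the largest rise (0.69 ± 0.07, adjusted p = 0.00392) and Mrps12 the largest fall (-0.68 ± 0.11, adjusted p = 0.0138), followed by Mrpl40 at -0.54.

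Of 83 measured nuclear subunits of complexes I to V, 6 rose and 7 fell, with a median of -0.06. With median-of-ratios rescaling 7 rose and 2 fell, and the calls of Uqcrb, Cox7c, Cox5a and Atp5g3 below were lost (adjusted p = 0.0659, 0.0520, 0.0804 and 0.0769); quantile normalization gave 13 and 4. In complex I 4 of 37 rose (Ndufa1, Ndufb11, Ndufv3 and Ndufa10, by 0.25 to 0.33) and 2 fell (Ndufs8 at -0.40 and Ndufb10 at -0.25). In complex III 1 of 9 fell, Uqcrb, at -0.30, and in complex II, which has no mt- subunit, 0 of 4 were called. In complex IV 2 of 15 rose (Cox4i2 and Cox6a1) and 2 fell (Cox7c and Cox5a), and in complex V 2 of 18 fell (Atp5g1 and Atp5g3). Cox4i2, an alternative complex IV subunit, rose from 4.42 to 5.62 TPM to 9.72 to 13.9 TPM (1.09 ± 0.13, adjusted p = 0.00617), and Cox7c fell (-0.34 ± 0.07, adjusted p = 0.0217). Atp5g1, which encodes the subunit of the membrane ring of complex V, fell from 488 to 537 TPM to 321 to 393 TPM (-0.55 ± 0.08, adjusted p = 0.0101). Whether the mt- and nuclear subunits differ as groups was not tested. Of 10 measured mitophagy genes 2 rose and 1 fell: Bnip3, a receptor on the outer mitochondrial membrane, rose from 129 to 142 TPM to 299 to 334 TPM (1.22 ± 0.07, adjusted p = 0.00189), and Optn rose by 0.82 ± 0.22 (adjusted p = 0.0461), while Calcoco2 fell from 111 to 119 TPM to 36.7 to 56.4 TPM (-1.34 ± 0.15, adjusted p = 0.00554).

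Because most mitochondrial mRNAs carry short tails and rRNA almost none, other RNAs without a poly(A) tail were followed beside them. Of 28 measured replication-dependent histone genes 15 fell and 1 rose (H2bc4), with a median of -0.90 (7 and 1 when the minimum mean was raised to 5 TPM). The largest falls were those of H2bc11 at -2.12, H4c2 at -1.87 and H2ac12 at -1.54, all at low levels. H2bc11 had 4.10 to 10.7 TPM in wild type and 0 to 1.89 TPM in the mutant. H4c2 had 4.23 to 8.14 TPM and 0 to 2.45 TPM, and H2ac12 8.98 to 19.8 TPM and 2.15 to 6.03 TPM. Over all the histone genes listed, the sum was 156 to 203 TPM in wild type and 67.1 to 100.8 TPM in the mutant. Of 8 other measured nuclear RNAs without a tail, 3 rose (Rn7sk, Rn7s1 and Rn7s2) and 0 fell, but Rn7s1 and Rn7s2 held equal values in all 10 libraries and the sums overlapped (109 to 239 TPM and 82.9 to 272 TPM). At Rn7sk, a regulator of transcription elongation, and Rn7s1, part of the signal recognition particle, the libraries overlapped as well, at 3.90 to 26.5 TPM against 9.44 to 23.0 TPM and at 11.9 to 59.2 TPM against 18.5 to 74.6 TPM. Without library 1 of wild-type set 2 the difference at Rn7sk was -0.07 in place of 0.55, and quantile normalization gave 1 call. The part of mRNA capture in the mt- levels was not tested.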

How the data were processed

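The authors deposited 1 TPM value per gene and library. Their processing notes name mm10 as the genome and list RSEM, STAR, Trim Galore and DESeq2 (per the submitters' processing notes, with no order or role); versions and strand mode were not given in the sources used here. All 10 columns matched samples by name, and 0 per-sample columns were left out. TPM keeps no depth, so counting error is unknown. Of 55401 gene IDs, 55141 were found in GENCODE M21, which gave coordinates and sequences.

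Set means of log2(TPM + 1) for genes whose mean TPM reached 1 were compared with limma 3.58.1 (trended empirical Bayes, two-sided, R 4.3.3), with Benjamini-Hochberg adjustment and a threshold of 0.05; a fold change on this scale understates that of low genes. The procedure was tested on simulated data. Means ± SD are over set means. Nuclear copies were found with BLAST 2.17.0; adding them was chosen after seeing the data. The members and lists were chosen with earlier results of these data known. The mt- mRNAs and rRNAs were named one by one and the tRNAs by range and count. Up to 3 called genes per nuclear list, largest change first, whose libraries did not overlap (otherwise the 2 with the smallest p) were named, with copies of at least 1 TPM; other names in counts of 5 or fewer were added after their values were seen. Alternatives covered pseudocount, filter, scaling, GC content, unit of replication, blocks, variance moderation and leaving out sets or libraries.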

Additional observations from a re-analysis of the deposited data

Results flagged for a closer look

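In groups of 4 to 10 libraries, a gene was listed here when its highest or lowest library stood apart from the nearest other by more than Dixon's 95% critical value. This was so for 6 of 162 groups tested, where chance gives about 1 in 20 if libraries are independent. Libraries of 1 set need not be, so that rate is a rough guide. Among the nuclear copies, Gm10222 (of mt-Nd4l) had 1264 TPM in library 2 of mutant set 1, where the next lowest mutant library had 2313 TPM. Gm10925 (of mt-Atp6) had 5342 TPM in library 1 of wild-type set 1, with the next wild-type library at 4467 TPM, and mt-Atp6 itself was lowest there. Gm13340 (of mt-Co1) had 3.49 TPM in library 1 of mutant set 2, with the next mutant library at 2.04 TPM. Of the nuclear genes, Rexo2 had 40.8 TPM in library 1 of mutant set 3 (next highest 34.3 TPM), Qtrt2 had 27.1 TPM in library 2 of mutant set 1 (next lowest 31.3 TPM), and Ndufs8, a complex I subunit, had 90.3 TPM in library 2 of mutant set 1 (next highest 84.99 TPM). None of these was tested for a cause.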

How the results depend on the processing

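Under 31 alternatives 0 mt- genes were called lower in the mutant. mt-Nd6 was called higher in 29 of 31, mt-Co3 in 27, mt-Nd5 in 26, mt-Atp6 in 19 and mt-Nd3 in 17. In place of 5 mt- genes and 20 higher and 44 lower members of the 17 nuclear lists, no filter on low values gave 1, 5 and 15, library 1 of each set alone 2, 8 and 19, library 2 alone 3, 6 and 17, variance moderation without a trend 3, 7 and 27, and all 10 libraries without regard to sets 8, 44 and 94. GC correction gave 8 mt- genes, and quantile normalization 29 lower list members. The cause was not tested. The set number as a replicate block gave 3, 3 and 16, and the replicate number within a set as a block over 10 libraries gave 8, 41 and 92. Deviations of same-numbered sets from the mean of their genotype correlated at -0.164 and -0.0904. With 2 wild-type sets, the deviation of 1 mirrors that of the other. These values therefore cannot decide whether set numbers pair the samples. Leaving out a set or library gave 0 to 5 mt- genes, 1 to 21 higher and 0 to 49 lower list members. Median-of-ratios rescaling moved the median of all genes by 0.0371, and gave 1095 higher and 1096 lower genes in the whole table in place of 892 and 1350 (quantile normalization 1073 and 1039). The complex IV ratio was 1.22 with copies and 1.08 to 1.21 with a set or library left out; without mt-Atp8, an alternative chosen after seeing the data, the complex V share had a ratio of 1.14 and the plus-strand share of 0.994. Some directions reversed. Ankrd11 had 0.012 under quantile normalization, Gm13340 0.14 with library 1 of each set only and 0.019 with GC correction, and Gm28439 0.042 with library 2 of each set only, 0.11 with set blocks and 0.13 with GC correction. With a set or library left out, differences ranged from -0.033 to 0.33 for mt-Rnr2, -0.051 to 0.22 for mt-Nd1, -0.095 to 0.14 for mt-Nd2, -0.016 to 0.18 for mt-Co1, -0.078 to 0.32 for mt-Nd4l, -0.075 to 1.17 for Rn7sk, -0.14 to 0.011 for Ankrd11, -0.39 to 0.11 for Gm28439, -0.058 to 0.58 for Gm10222 and -0.0096 to 0.27 for Gm29216. mt-Atp8 had the highest value in every library, so quantile normalization sets its difference to 0 by construction.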
